A study of Rattus norvegicus with 12 samples.

Results

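The mitotic spindle, kinetochore and cytokinesis genes were followed in whole mammary glands of 12 ovariectomized (ovx) female Lewis rats. They are 59 genes named by symbol for their roles in cell division, and a gene counted as measured when a probe set of the array carried its symbol alone (the brightest such probe set where a gene had several). Of the 59 genes, 46 were measured, among 14506 genes with a single-symbol probe set on the array, and 44 passed the filter on low signal and were tested. No single-symbol probe set was found for Kif18a, Cenpe, Ckap2, Spc24, Cenpf, Espl1, Sgo1, Sgo2, Ncapg, Ncapd2, Ncaph, Mki67 and Anln, and Ska1 and Kif20b lay below the filter.

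The rats were ovx at about 10 weeks of age and were treated from 14 days later with 3 subcutaneous doses. Tissue was collected 24 hr after the third dose (the labels give the treatment time as 48 h). Of the 4 groups of 3 rats each, the vehicle group received a DMSO and castor oil mixture, the E2 group 17β-estradiol at 4 μg per kg per day, the 3-MC group 3-methylcholanthrene at 15 mg per kg per day, and the E2 + 3-MC group both at these doses. All rats thus lacked the ovaries as a source of hormones, and 3-MC is a polycyclic hydrocarbon that binds the aryl hydrocarbon receptor. RNA came from whole glands, 1 Affymetrix Rat Gene 1.0 ST array was used for each rat, and the array gives a linear signal intensity for each probe set.

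In a dividing cell, cyclin B with Cdk1 starts mitosis, motors and microtubule-binding proteins build the spindle, and kinetochores tie the chromosomes to it while checkpoint kinases delay anaphase until every chromosome is attached. Separation of the sister chromatids follows when the anaphase-promoting complex destroys securin and cyclin B, and the central spindle then directs the cleavage furrow. Most of these genes are transcribed late in the cell cycle, in G2 and mitosis, so their mRNA marks cycling cells, and in the ovx gland few cells cycle until estrogen drives the epithelium to proliferate. In RNA from whole glands, more dividing cells and more RNA per dividing cell cannot be told apart.

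The promoters of such genes often hold 2 short elements, the CHR (cell cycle genes homology region), searched here as TTTGAA or TTCGAA, and the CCAAT box, both read on both strands. RefSeq gives a promoter of 250 bases before to 50 bases after the start (GRCr8) for 51 of the 59 genes. Where several are listed for a gene, the first was used. The CHR letters stood in 36 of these 51 promoters (70.6%) and in 18.5% of the promoters of 18999 protein-coding genes, and they began within 50 bases of the start in 49.0% and 4.81%, respectively. CCAAT stood in 70.6% of the 51 promoters and in 38.4% of all, and at least 2 copies in 47.1% and 12.4%. Both elements were found in 29 of the 51 promoters (56.9%) against 7.64% of all promoters, and neither in 8. All 4 promoters of the anaphase and cohesion genes and 6 of the 7 of condensin and chromosome structure held both, against 1 of the 7 of the spindle motors. The 150 bases before the start are shown for 7 of the genes, 5′ to 3′ along the gene. Of those with both elements, Ccnb2, Cdk1 and Top2a had a large response to E2, Aspm one near the median of the tested genes and Cdc20 a small one. Kif11 has CCAAT alone and Aurka neither. Each match that lies wholly inside the window is in capitals (ATTGG and TTCAAA are the same elements on the other strand).
Ccnb2, chr8:79981659-79981808, minus strand: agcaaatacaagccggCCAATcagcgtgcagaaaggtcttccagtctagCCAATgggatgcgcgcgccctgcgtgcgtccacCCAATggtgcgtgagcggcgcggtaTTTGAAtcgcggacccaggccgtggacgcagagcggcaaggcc
Cdk1, chr20:19265143-19265292, plus strand: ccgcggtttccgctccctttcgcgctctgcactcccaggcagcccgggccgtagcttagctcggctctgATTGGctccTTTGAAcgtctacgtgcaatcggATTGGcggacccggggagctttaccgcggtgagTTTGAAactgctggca
Top2a, chr10:84473094-84473243, minus strand: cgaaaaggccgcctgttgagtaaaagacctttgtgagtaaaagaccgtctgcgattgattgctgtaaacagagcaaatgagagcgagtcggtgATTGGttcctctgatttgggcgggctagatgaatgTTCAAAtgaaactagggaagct
Aspm, chr13:53625434-53625583, plus strand: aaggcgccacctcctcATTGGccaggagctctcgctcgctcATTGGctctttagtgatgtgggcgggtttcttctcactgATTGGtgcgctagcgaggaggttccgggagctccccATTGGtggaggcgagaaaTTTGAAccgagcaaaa
Cdc20, chr5:137255800-137255949, minus strand: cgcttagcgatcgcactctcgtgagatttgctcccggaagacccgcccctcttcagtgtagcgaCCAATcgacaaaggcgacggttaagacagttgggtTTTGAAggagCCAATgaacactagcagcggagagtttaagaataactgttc
Kif11, chr1:244536717-244536866, plus strand: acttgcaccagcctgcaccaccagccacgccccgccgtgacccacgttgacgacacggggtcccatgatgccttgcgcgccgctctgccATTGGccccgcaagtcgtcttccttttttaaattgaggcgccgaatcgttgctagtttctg
Aurka, chr3:181560770-181560919, minus strand: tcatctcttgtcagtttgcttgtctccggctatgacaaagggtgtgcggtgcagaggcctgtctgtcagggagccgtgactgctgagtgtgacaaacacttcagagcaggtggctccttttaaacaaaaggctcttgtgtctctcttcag
In Ccnb2, 3 CCAAT copies lay upstream of a CHR that began 43 bases before the start, and in Aspm 4 copies lay upstream of a CHR that began 16 bases before it. These matches are letters only, and whether a factor occupies them was not measured. The windows of Kif11 and Aurka lie inside the genes as annotated (chr1:244494916-244589250 and chr3:181546742-181562890). Elements at another start of these genes would thus not be counted, and Aurka lacks both only in the promoter used. The windows of Ccnb2 and Cdk1 lie in part inside the annotated genes (chr8:79968459-79981717 and chr20:19265252-19280456), as does the CHR nearest the start in each. Positions are thus relative to the start of the promoter used.

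E2 raised most of the mitotic genes. A gene was called at an adjusted p under 0.05 (limma, Benjamini-Hochberg over 23371 probe sets, two-sided) with at least a 1.5-fold change on the log2(intensity + 16) scale, on which all log2 changes are given. With E2, 36 of the 44 genes were called higher compared with 1.3% of all probe sets tested, and 0 of 44 were called lower compared with 0.287%. Over the 44 genes the median log2 change was 1.29, against 0.02 for all probe sets. In all 44 genes every E2 rat lay above every vehicle rat, as in 10.1% of all probe sets. The other 8 genes had log2 changes of 1.16 (Cdkn3, a phosphatase that acts on CDKs), 1.03 (the motor Kif18b), 0.82 (Cdc20, an activator of the anaphase-promoting complex), 0.79 (Ube2c), 0.74 (Smc4), 0.66 (Smc2), 0.61 (Kifc1) and 0.40 (Aurka), each with an unadjusted p under 0.05 in limma. For E2 against vehicle, the share of all probe sets at that unadjusted level was not counted, here or for the lists and markers below.

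**Figure D1:**
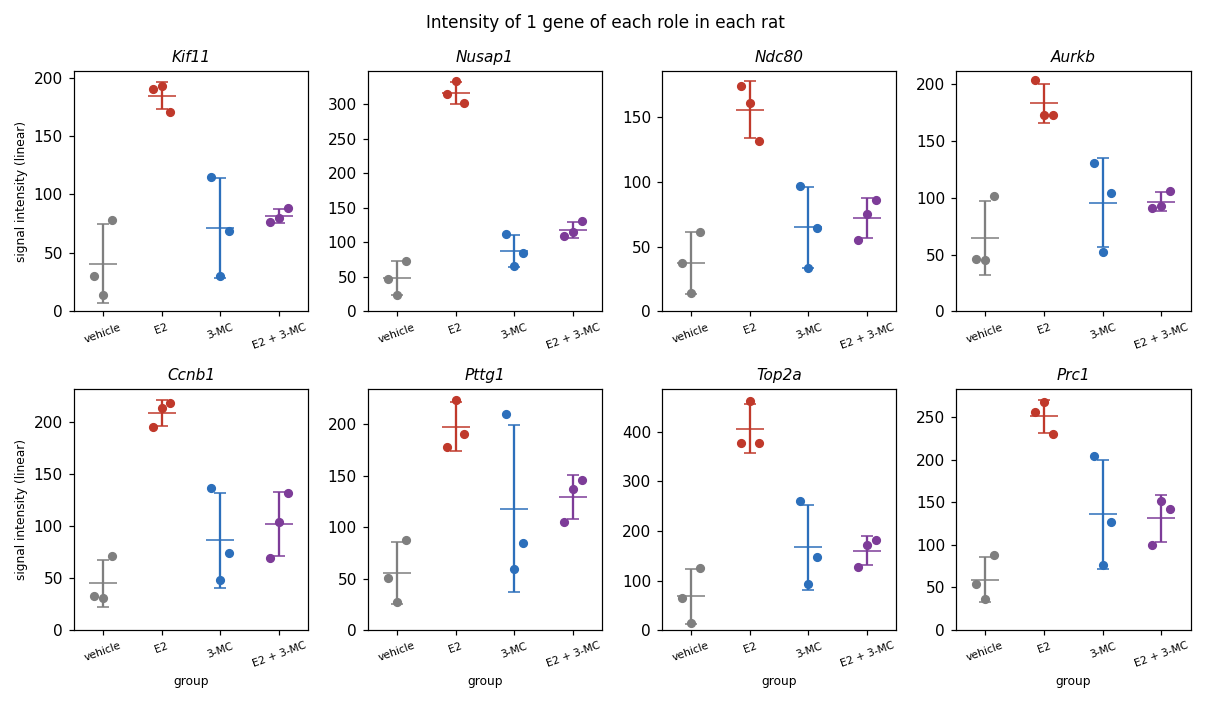
Signal intensity (linear, from 0) of 1 gene of each role in each rat, by group. Points are single rats, and bars are the mean ± SD of 3 rats. For each of the 8 genes, the 3 E2 rats lie above all vehicle and all E2 + 3-MC rats, while 3-MC rat 1 is the highest of its group.

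Among the spindle motors, Kif11, the kinesin that pushes the spindle poles apart, read 30.5, 13.7 and 78.3 in the vehicle rats, 190, 193 and 171 with E2, 115, 30.1 and 68.7 with 3-MC, and 76.7, 79.5 and 88.7 with E2 + 3-MC. The E2 rats stood apart from all others, and its log2 change with E2 was 1.98 ± 0.37 (SE, 3 rats a group, adjusted p = 0.0182). Kif2c, which takes microtubules apart at their ends, gave 34.9, 29.3 and 46.4 with vehicle, 84.2, 98.6 and 85.4 with E2, 66.3, 30.5 and 52.4 with 3-MC, and 56.3, 56.5 and 60.3 with both. Its change of 1.01 ± 0.19 (adjusted p = 0.0164) was close to that of Kif15 (1.13), a motor that can share the work of Kif11. Kifc1, a minus-end motor that focuses the poles, changed least of the 5 motors. It read 114, 53.9 and 116 with vehicle, 141, 151 and 146 with E2, 141, 87.2 and 137 with 3-MC, and 121, 117 and 137 with both, and its E2 change of 0.61 ± 0.22 was not called (adjusted p = 0.266).

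All 5 spindle microtubule proteins were called higher with E2, with a median log2 change of 1.38. Nusap1, which bundles spindle microtubules around the chromosomes, had the smallest adjusted p of the 44 genes. It read 47.3, 24.0 and 72.6 with vehicle, 314, 333 and 302 with E2, 112, 65.3 and 83.9 with 3-MC, and 109, 114 and 130 with E2 + 3-MC. The lowest E2 rat was thus above the highest rat of any other group, and the change was 2.45 ± 0.24 (5.46-fold, adjusted p = 0.000116). Tpx2, the activator of Aurora A on the spindle, rose by 1.76, Dlgap5, which steadies kinetochore fibers, by 1.38, and Hmmr, an assembly factor, by 1.30. Aspm, a protein of the spindle poles, had the smallest change of the 5 (1.28 ± 0.21, adjusted p = 0.00897), with 43.1, 20.3 and 42.8 with vehicle, 105, 116 and 97.4 with E2, 70.7, 33.2 and 53.5 with 3-MC, and 48.4, 48.3 and 53.4 with both.

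The 8 tested genes of the kinetochore and checkpoint were all called higher with E2 (median 1.18). Ndc80, which grips the microtubule at the kinetochore, read 37.2, 13.8 and 61.3 with vehicle, 174, 161 and 131 with E2, 96.5, 33.6 and 64.4 with 3-MC, and 55.3, 75.1 and 85.7 with both. Its change with E2 was the largest of this role (1.78 ± 0.32, adjusted p = 0.0155). Its partners in the same complex rose less, by 0.98 for Nuf2 and by 0.75 ± 0.17 for Spc25 (adjusted p = 0.0464). Spc25 gave 38.4, 28.1 and 39.5 with vehicle, 64.5, 82.5 and 63.5 with E2, 73.4, 40.0 and 47.0 with 3-MC, and 52.5, 62.6 and 56.3 with both. Of the checkpoint genes, Bub1b rose by 1.40, the kinase Ttk by 1.26, the kinase Bub1 by 1.11 and Mad2l1, which holds back the anaphase activator, by 0.99. Ska3, which helps the kinetochore follow a shortening microtubule, rose by 1.37. Its partner Ska1, too dim to be tested, read 12.5, 5.06 and 14.7 with vehicle, 44.8, 57.3 and 37.7 with E2, 27.1, 15.7 and 29.8 with 3-MC, and 23.6, 31.8 and 26.2 with both.

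The chromosomal passenger complex, which corrects faulty attachments and later sits at the midzone, rose in all 4 subunits (median 0.98). Its kinase Aurkb changed most, with 46.4, 44.9 and 102 in the vehicle rats, 203, 173 and 173 with E2, 130, 52.7 and 104 with 3-MC, and 90.7, 92.6 and 106 with both (1.38 ± 0.27, adjusted p = 0.023). Incenp, the scaffold, changed least, with 92.9, 82.3 and 115 with vehicle, 192, 172 and 162 with E2, 128, 102 and 110 with 3-MC, and 154, 121 and 118 with both (0.77 ± 0.15, adjusted p = 0.0189). Cdca8 and Birc5, the subunits that place the complex on chromatin, rose by 1.01 and 0.94.

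Of the 10 mitotic cyclins, kinases and their regulators, 8 were called higher with E2 (median 1.45). Ccnb1, the main mitotic cyclin, read 32.5, 31.3 and 71.4 with vehicle, 195, 214 and 218 with E2, 137, 48.0 and 74.0 with 3-MC, and 69.8, 104 and 132 with both, a change with E2 of 1.94 ± 0.30 (3.85-fold, adjusted p = 0.00668). Ccnb2 gave 51.4, 35.6 and 71.7 with vehicle, 217, 230 and 204 with E2, 224, 64.5 and 95.3 with 3-MC, and 97.8, 116 and 154 with both (1.79 ± 0.31, adjusted p = 0.0131). In Ccnb2, 3-MC rat 1 thus reached the level of the E2 rats, which the other 3-MC rats did not. Cdk1, the kinase that both cyclins activate, rose by 1.81, and Plk1, a kinase of entry, spindle assembly and cytokinesis, by 1.63. Ccna2, the cyclin of S phase and early mitosis, rose by 1.45, the mitotic kinase Pbk by 1.45, Cdca3, a protein of mitotic entry, by 1.44 and the kinase Melk by 0.84. Aurka, the kinase of the spindle poles, changed least of all 44 genes, with 78.0, 82.8 and 95.6 with vehicle, 104, 144 and 110 with E2, 135, 82.5 and 100 with 3-MC, and 102, 106 and 112 with both (0.40 ± 0.16, adjusted p = 0.329).

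Only 1 of the 3 anaphase genes and 1 of the 3 genes of chromosome structure were called. Pttg1 (securin), which keeps separase inactive, read 50.4, 27.4 and 87.4 with vehicle, 177, 224 and 191 with E2, 210, 59.0 and 84.8 with 3-MC, and 105, 137 and 145 with both (1.67 ± 0.35, adjusted p = 0.0319). Ube2c, the ubiquitin-conjugating enzyme of the anaphase-promoting complex, gave 61.2, 118 and 113 with vehicle, 170, 174 and 179 with E2, 124, 88.3 and 131 with 3-MC, and 90.9, 134 and 167 with both, and its change of 0.79 ± 0.23 was not called (adjusted p = 0.125). Top2a, which untangles sister DNA, had the largest change of the 44 genes. It read 65.3, 14.4 and 125 with vehicle, 378, 463 and 378 with E2, 261, 92.0 and 148 with 3-MC, and 127, 171 and 182 with both (2.58 ± 0.44, 5.98-fold, adjusted p = 0.0104). The condensin ATPases changed far less. Smc2 gave 203, 102 and 227 with vehicle, 303, 299 and 230 with E2, 308, 178 and 246 with 3-MC, and 162, 197 and 191 with both, and neither Smc2 (0.66 ± 0.25, adjusted p = 0.28) nor Smc4 (0.74, adjusted p = 0.102) was called.

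All 6 tested cytokinesis genes were called higher with E2 (median 1.44). Prc1, which crosslinks the overlapping microtubules of the midzone, read 54.0, 36.3 and 87.6 with vehicle, 256, 268 and 230 with E2, 204, 76.7 and 127 with 3-MC, and 100, 151 and 142 with both (1.88 ± 0.29, adjusted p = 0.00615). Ect2, the exchange factor that activates RhoA at the furrow, rose by 1.77, and Kif23 and Racgap1, which together form centralspindlin, both rose by 1.44. The midzone motor Kif20a rose by 1.12. Cep55, which recruits the abscission machinery, changed least, with 19.0, 12.6 and 33.7 with vehicle, 61.6, 69.0 and 58.0 with E2, 54.2, 25.2 and 42.3 with 3-MC, and 29.4, 38.4 and 40.7 with both (1.10 ± 0.21, adjusted p = 0.0212). Kif20b, below the filter, read 20.5, 7.31 and 28.5 with vehicle, 65.3, 78.8 and 64.5 with E2, 47.4, 15.5 and 31.9 with 3-MC, and 26.2, 30.1 and 23.7 with both.

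**Figure D2:**
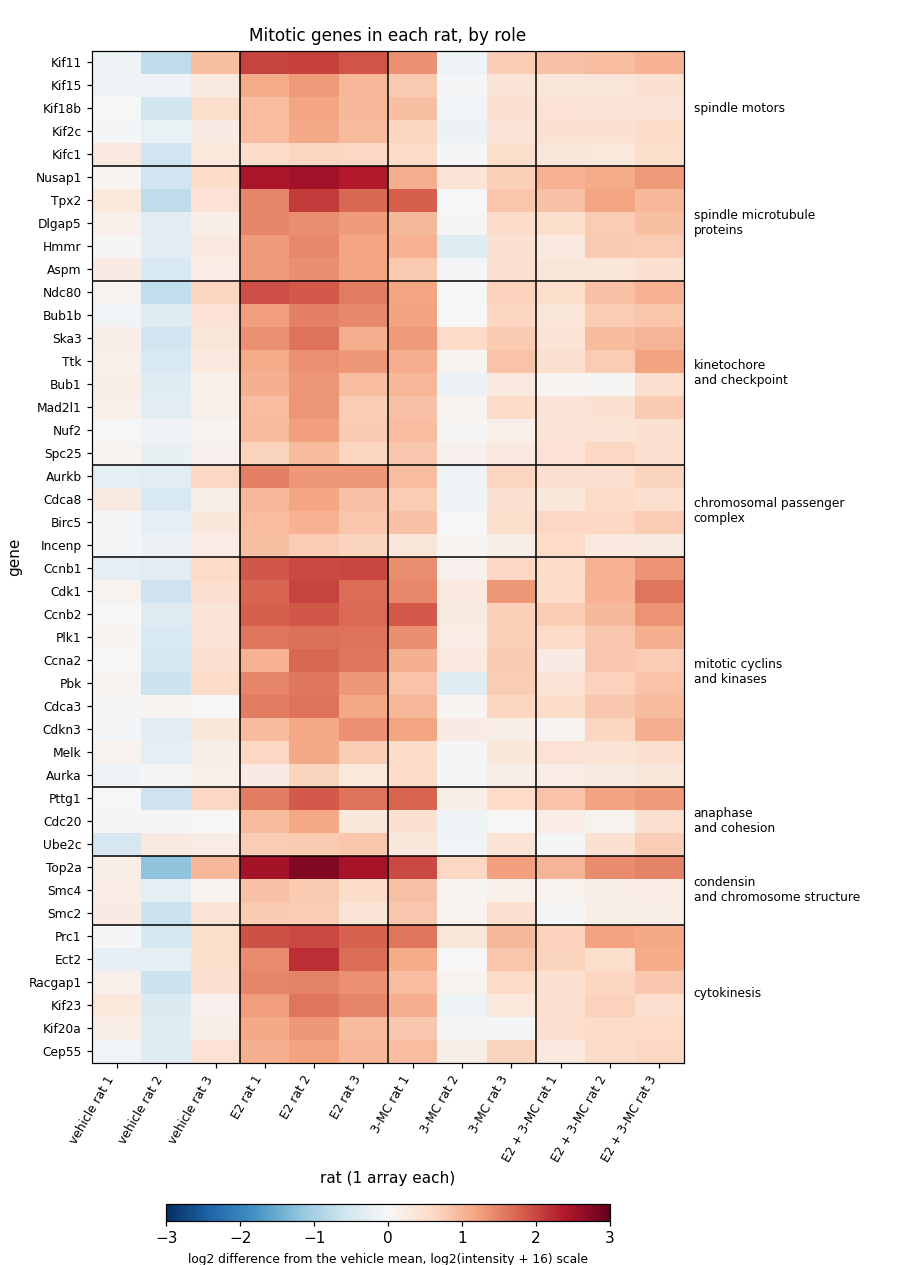
Log2 difference of each rat from the mean of the vehicle rats (color) for the 44 tested genes, in rows grouped by role and ordered by the change with E2. Columns are the 12 rats. The 3 E2 columns are the most uniformly high, 3-MC rat 1 is the highest 3-MC rat in 43 of the 44 genes and vehicle rat 2 the lowest vehicle rat in 40.

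The calls with E2 rested on few rats. When 1 vehicle rat was left out, 18 (rat 1), 14 (rat 2) or 35 (rat 3) genes were called, and when 1 E2 rat was left out, 12 (rat 1), 6 (rat 2) or 22 (rat 3). Nusap1, Dlgap5, Ccnb1, Plk1, Cdca3 and Prc1 were called whichever of the 12 rats was left out. The methods' t-test called 0 of 44 genes after adjustment (7 probe sets in all), while 41 had an unadjusted p under 0.05 and at least a 1.5-fold change in it. For the t-test, the share of all probe sets at an unadjusted level was not counted, here or in the comparisons below.

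With E2 + 3-MC the mitotic genes lay between vehicle and E2. In all 44 genes the E2 mean was the highest and the vehicle mean the lowest of the 4 groups, and the E2 + 3-MC mean fell between these. Compared with E2 alone, the median log2 change with E2 + 3-MC was -0.66 (0.05 over all probe sets). Every E2 rat lay above every E2 + 3-MC rat in 39 of the 44 genes, against 5.93% of all probe sets, the exceptions being Aurka, Cdc20, Cdkn3, Mad2l1 and Ttk. In limma 34 genes were lower at an unadjusted p under 0.05, against 2.77% of all probe sets, but 0 of 44 genes and 0% of all probe sets were called in either direction, and the methods' t-test had 34 genes below that unadjusted level, of which 0 passed after adjustment. Nusap1 had the smallest p (log2 change -1.31, 95% interval -1.82 to -0.81, adjusted p = 0.26). The count of calls differed with the arrays fitted, and why was not tested. When limma was fitted to the E2 and E2 + 3-MC arrays alone, 22 of the 44 genes were called lower, against 0.385% of all probe sets. The median SD of the 44 genes within a group was 0.15 in the E2 rats and 0.19 in the E2 + 3-MC rats but 0.40 in the vehicle and 0.47 in the 3-MC rats, whereas over all probe sets it ran from 0.14 to 0.20.

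By role, the median difference of E2 + 3-MC from E2 ranged from -0.83 for cytokinesis to -0.47 for the passenger complex. The mitotic cyclins and kinases (-0.76) and the spindle microtubule proteins (-0.74) were near the upper end of that range in size, and the spindle motors (-0.62), condensin and chromosome structure (-0.57), the kinetochore and checkpoint (-0.56) and the anaphase genes (-0.54) were nearer to the passenger complex. Beside Nusap1, the genes with the largest differences were Top2a (-1.27, 95% interval -2.21 to -0.34), Kif11 (-1.04, -1.84 to -0.24) and Ect2 (-0.99, -1.64 to -0.35). The differences of Aurka (-0.12, -0.47 to 0.23), Kifc1 (-0.20, -0.68 to 0.28) and Spc25 (-0.23, -0.60 to 0.14) were the smallest, with intervals that include 0. The differences between roles were not tested, since genes of one role are not replicates.

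With both compounds the genes were above vehicle, but none passed the test. Compared with vehicle, all 44 genes had a positive log2 change with E2 + 3-MC (median 0.60, against 0.07 over all probe sets), 30 at an unadjusted p under 0.05 (6.99% of all probe sets, 15 of the genes by the t-test), and in 28 genes every E2 + 3-MC rat lay above every vehicle rat (10.5%). In limma 0 of 44 were called after adjustment, compared with 0.154% of all probe sets called higher. Nusap1 came closest (1.14 ± 0.24, adjusted p = 0.105), and it was called when vehicle rat 3 was left out. Top2a (1.31), Pttg1 (1.11), Cdk1 (1.07), Tpx2 (1.03), Ccnb2 (1.02) and Prc1 (1.01) had the other changes above 1, and Smc2 (0.11), Smc4 (0.17) and Bub1 (0.19) the smallest.

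**Figure D3:**
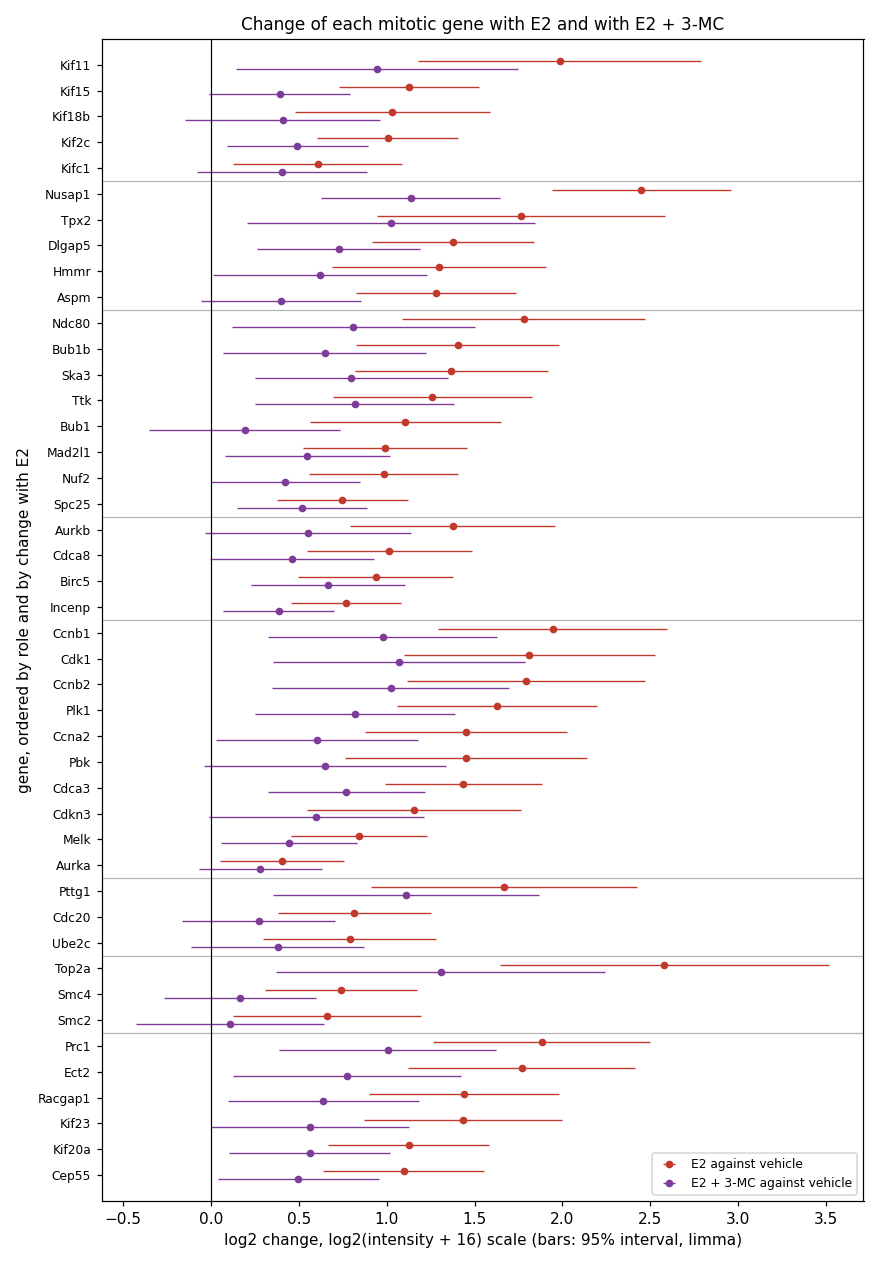
Log2 change compared with vehicle for E2 and for E2 + 3-MC for each of the 44 genes, ordered by role and by the change with E2. Points are limma estimates and bars 95% intervals. Every E2 point lies to the right of its E2 + 3-MC point, and both comparisons share the 3 vehicle rats.

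3-MC alone gave smaller and less even differences. All 44 log2 changes compared with vehicle were positive (median 0.50, against 0.06 over all probe sets), but 0 of 44 genes and 0% of all probe sets were called. At an unadjusted p under 0.05, limma gave 20 higher genes (3.06% of all probe sets) and the methods' t-test 0. Every 3-MC rat lay above every vehicle rat in 3 genes, Cdca3, Ska3 and Spc25, against 4.71% of all probe sets. The largest changes were those of Top2a (1.27), Cdk1 (1.02), Prc1 (0.98) and Ccnb2 (0.94). Rats of the 3-MC group differed widely, as the median log2 difference of the 44 genes from the vehicle mean was 0.96, 0.03 and 0.56 in rats 1 to 3, against 0.05, -0.37 and 0.34 in the vehicle rats. The median change fell to 0.28 without 3-MC rat 1 and to 0.32 without vehicle rat 2, and it was 0.75 without 3-MC rat 2 (0.68 without vehicle rat 3).

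Same-numbered vehicle and 3-MC rats deviated together over all probe sets (correlations 0.34, 0.44 and 0.56), although no source used here says that a number marks a shared litter or day. Taken as pairs, the 3-MC rat was above its vehicle rat by a median of 0.94, 0.40 and 0.18 for numbers 1, 2 and 3, and in 34 of the 44 genes it was above in every pair, against 23.5% of all probe sets. With these numbers as a block in the 6 arrays, 33 genes were higher at an unadjusted p under 0.05, against 7.11% of all probe sets, and 0 were called.

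E2 given with 3-MC gave levels near those of 3-MC alone, with a median that moved with single rats. Compared with 3-MC alone, 36 of the 44 log2 changes with E2 + 3-MC were positive, with a median of 0.09 (0.02 over all probe sets). In linear intensity, the E2 + 3-MC mean was above the 3-MC mean in 28 of the 44 genes. In limma 0 were called higher, compared with 0.103% of all probe sets, none had an unadjusted p under 0.05 (2.81% of all probe sets were higher at that level), and in none did every E2 + 3-MC rat lie above every 3-MC rat (4.48%). The 95% interval of each of the 44 changes included 0, and none reached above the 1.09 of Kif11 or below the -0.90 of Top2a, and the narrowest interval was that of Incenp (-0.13 to 0.50). The sign of the median turned with single rats, to -0.14 without 3-MC rat 2 and 0.33 without 3-MC rat 1. Without 3-MC, by contrast, E2 rats lay above all 3-MC rats in 28 genes (6.35% of all probe sets).

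The interaction, the change with E2 in the presence of 3-MC minus that in its absence, was negative in all 44 genes, with a median of -1.20 (-0.01 over all probe sets). At an unadjusted p under 0.05, 41 genes were lower, against 2.83% of all probe sets, and Kifc1, Aurka and Ube2c were not. After adjustment 0 of 44 genes and 0% of all probe sets were called. Top2a (-2.54), Nusap1 (-2.05, adjusted p = 0.446), Prc1 (-1.86), Cdk1 (-1.76), Ccnb2 (-1.71) and Kif11 (-1.70) had the largest values, and Nusap1 was called when vehicle rat 3 was left out. This term uses all 4 groups, so the uneven vehicle and 3-MC rats bear on it.

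Other genes of mitosis responded less evenly to E2. Of 87 further symbols, 61 were measured and 60 tested, and 5 were called higher and 0 lower, with a median log2 change of 0.34 (29 had an unadjusted p under 0.05). Stmn1, which destabilizes microtubules, rose by 1.66, Nek2, a centrosome kinase, by 1.65, Kif4a, a chromosome-bound motor, by 1.54, and the centromere protein Cenpt by 1.10, and Cenpw was the fifth. Of these 5, Stmn1 alone was called without E2 rat 2, and Cenpw was called in 3 of the 12 fits that leave out 1 rat. The list includes subunits of the anaphase-promoting complex, cohesin and septins, which cells also use outside mitosis. Of 27 DNA replication genes tested, 1 was called, the helicase subunit Mcm7 (0.79, adjusted p = 0.0283), with a median of 0.61 and 16 at an unadjusted p under 0.05. Mcm7 lost its call without vehicle rat 1 or 2 or without any 1 of the E2 rats. Of 17 G1 cyclins, CDKs and E2F genes, 0 were called in limma, with a median of 0.20 and, at an unadjusted p under 0.05, 3 higher and 2 lower. The unadjusted counts of these lists have no share of all probe sets beside them, since it was not counted for E2 against vehicle. The difference between these lists and the spindle, kinetochore and cytokinesis genes was not tested.

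Outside the 59 genes, the share called with E2 was highest where the promoter held both elements, a difference that was not tested. Of 603 tested genes with both elements in their promoter, 22 were called higher (3.65%), compared with 1.18% of those with the CHR letters alone, 0.959% with CCAAT alone and 1.08% with neither. Among the 37 tested mitotic genes with a promoter, the median log2 change with E2 was 1.29 in the 20 with both elements (15 called), 1.11 in the 6 with the CHR letters alone (6 called), 1.44 in the 5 with CCAAT alone (5 called) and 1.02 in the 6 with neither (4 called). Among the mitotic genes, those with both elements thus did not have the highest share of calls. Cdc20, with both elements, was not called, and Bub1, Melk, Kif2c and Ska3, with neither, were.

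Markers of cell types moved beside these genes. Of 15 luminal epithelium markers, 9 were called higher with E2, and their median difference from the vehicle mean was 0.92, 0.93 and 0.62 in the E2 rats, 0.36, 0.17 and 0.05 in the 3-MC rats, and 0.50, 0.18 and 0.53 in the E2 + 3-MC rats, against -0.02, 0.12 and -0.01 with vehicle. Their summed intensity ranged from 6554 to 7427 with vehicle, 10458 to 13348 with E2, 6675 to 8930 with 3-MC, and 7986 to 10239 with both. The order of the group means in luminal markers (vehicle, 3-MC, E2 + 3-MC, E2) was thus that of the median level of the mitotic genes. Between 3-MC and E2 + 3-MC, the order of the mitotic genes was not firm, as the E2 + 3-MC mean intensity was above the 3-MC mean in 28 of the 44 genes. No luminal marker was at 0. The 7 basal and myoepithelial markers had another order, with group means of -0.01 with vehicle, 0.22 with E2, -0.29 with 3-MC and -0.09 with both, and 2 of them, Krt14 and Krt17, were called higher with E2. Of 10 adipocyte markers, 3 were called lower with E2 (Pparg, Lpl and Retn), with a median log2 change of -0.42. The 6 endothelial markers (median -0.49) and the 8 of fibroblasts and matrix (median -0.47) had no call with E2 in limma, but 6 and 4 of them, respectively, were lower at an unadjusted p under 0.05. Of 3 markers of epidermis and hair follicle tested, 1 was called higher with E2 (Krt15). Of 9 myeloid markers, 1 was called with E2 (Cd14, higher), and their median difference was -0.20, -0.62 and 0.76 in the vehicle rats, -0.54, -0.52 and -0.20 with E2, 0.80, -0.24 and 0.94 with 3-MC, and 0.07, 0.62 and 0.83 with both. The vehicle and 3-MC rats with the lowest mitotic genes were thus also the lowest in myeloid markers, while the E2 rats were high in the former and low in the latter. Summed myeloid intensity ran from 3455 to 8501 with vehicle, 4278 to 5204 with E2, 5174 to 10041 with 3-MC, and 5891 to 10138 with both. The 7 lymphocyte markers tested followed a like pattern, at -0.04, -0.30 and 0.30 with vehicle, -0.16, -0.40 and -0.29 with E2, 0.81, 0.05 and 0.42 with 3-MC, and 0.27, 1.12 and 0.51 with both. Skeletal muscle markers varied most, with a summed intensity from 451 to 36559 in the vehicle rats, 1106 to 6910 with E2, 508 to 26933 with 3-MC, and 639 to 2209 with both. Their median difference was 1.84, 2.32 and -4.01 with vehicle and 1.38, 1.84 and -3.86 with 3-MC, so it ran by rat number in both groups. It was -0.39, -2.69 and -1.03 with E2 and -2.35, -2.06 and -3.50 with both. In the vehicle and the 3-MC group, rat 2 was highest in muscle markers and lowest in the median of the mitotic genes. No rat was both in the E2 or the E2 + 3-MC group. The part of these cells in the differences of the mitotic genes was not tested.

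**Figure D4:**
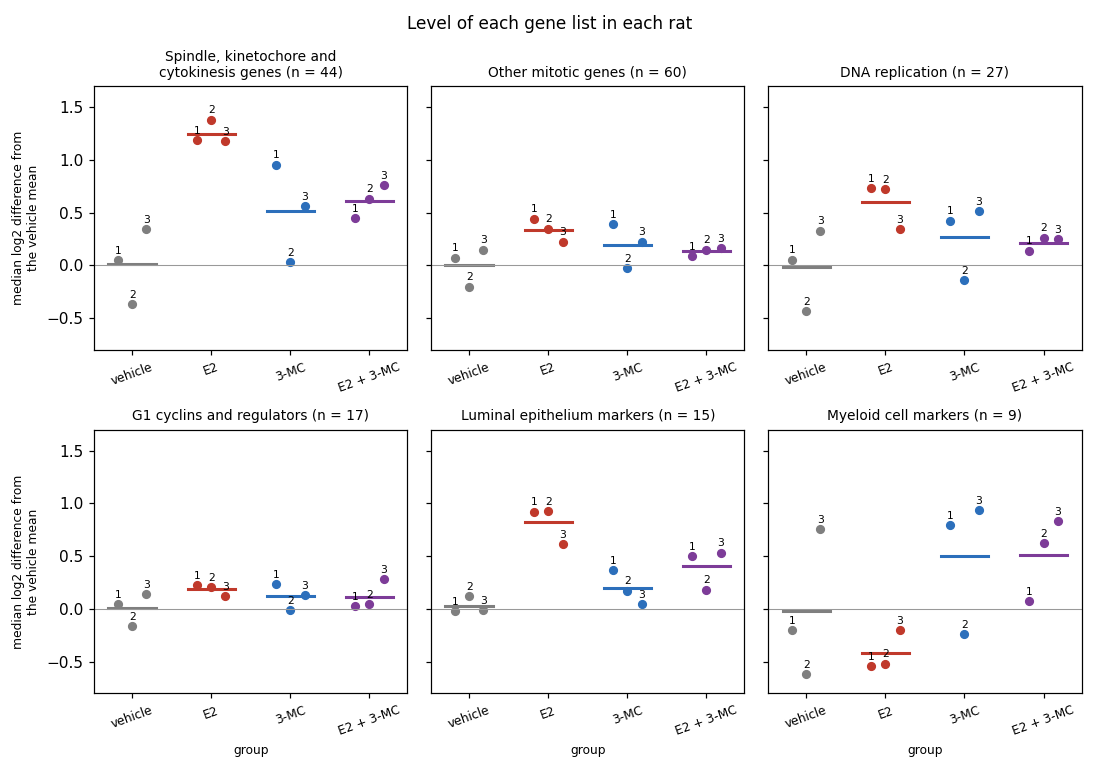
Median log2 difference of the tested genes of a list from the vehicle mean in each rat (points, labeled with the rat's number) and the mean of the 3 rats (lines), for 6 lists. The spindle, kinetochore and cytokinesis genes reach 1.18 to 1.38 in the E2 rats and 0.45 to 0.76 in the E2 + 3-MC rats. The G1 genes stay below 0.30 in every rat.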

How the data were processed

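RNA of whole mammary glands of 12 rats (4 groups of 3) was measured on 1-color arrays. The deposited values are linear signal intensities, which the authors made with PLIER in Affymetrix Expression Console, per the labels' processing notes. The study's methods name quantile normalization in GeneSpring, a baseline at the control median and removal of the lowest 20th percentile, but the deposited intensities are linear, are not centered and keep the low values. Array medians were 85.7 to 109 and correlations between arrays 0.952 to 0.988.

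Of 29214 probe sets, the platform annotation gives 15310 a single symbol, 323 several and 13581 none. Values were tested as log2(intensity + 16) for the 23371 probe sets whose mean lay above the 20th percentile, with limma 3.58.1 in R 4.3.3, 1 model with 4 group means and Benjamini-Hochberg adjustment. The 16 understates changes of dim genes. The script was checked on simulated data. Whether the rats of a group shared litters is not given in the sources used here. Precision is limited by the number of arrays, as 3 against 3 rats cannot give an exact two-sided permutation p below 0.1. The comparisons share groups, so their values are not independent. The methods' unpaired t-test, with 1.5-fold, was run on the same values.

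The members and lists were chosen with earlier results of these data known. Every measured member could be named, and values per rat are given for the genes the study assayed by PCR and for the largest and smallest E2 change of each role. Of the other mitotic genes and the comparison lists, up to 4 called genes with the largest change were named, and Cenpw was added after its values were seen. Promoters are RefSeq's (GRCr8), 300 bases each, and no promoter is printed or counted for the 8 members Incenp, Tpx2, Ube2c, Pbk, Sgo2, Ccna2, Aurkb and Racgap1. The deviations of same-numbered rats correlated above 0.1 in all 3 pairs between the vehicle and 3-MC groups (0.34 to 0.56), and in no other 2 groups did all 3 pairs pass 0.1, although those of E2 and E2 + 3-MC were all positive (0.081 to 0.14). The alternatives tried were the filter, the pseudocount, the normalization, the probe set rule, the model, the test, the threshold, a replicate block and leaving out each rat. The vehicle and 3-MC arrays with a replicate block were added after seeing the data. Figures were drawn with matplotlib 3.10.9 in Python 3.11.15.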

Additional observations from a re-analysis of the deposited data

Results flagged for a closer look

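In 3 mitotic genes every E2 rat lay above the vehicle mean, while every E2 + 3-MC rat lay below the mean of the 3-MC rats. Kif18b, a motor that shortens microtubules, changed by 1.03 with E2 against vehicle and by -0.02 with E2 + 3-MC against 3-MC (interaction -1.06, adjusted p = 0.982 in limma). The condensin subunit Smc2 changed by 0.66 and -0.36 (interaction -1.02, adjusted p = 0.982), and its partner Smc4 by 0.74 and -0.20 (interaction -0.94, adjusted p = 0.978). The test of the difference did not pass for any of the 3 genes, and none of the single changes was called.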

How the results depend on the processing

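The count of 36 genes called higher with E2 was 11 of the 16 tested with a filter at the 50th percentile, and 0 with the methods' t-test run on the deposited values. It ran from 30 to 40 with no filter, other pseudocounts, normalizations, thresholds or models, and from 6 (without E2 rat 2) to 40 (without 3-MC rat 1) over the fits that leave out 1 rat. Calls over all probe sets were 89 without E2 rat 2 and 434 without 3-MC rat 1, against 370 with every rat. With the rat's number as a replicate block, 35 were called, and the block moved no count of calls past 1.5 times. The median change with E2 was 1.62 with a pseudocount of 1. For E2 + 3-MC against E2, 22 genes were called in the fit of those 6 arrays alone. For E2 + 3-MC against vehicle and for the interaction, the fits that leave out 1 rat called 0 to 1 genes, Nusap1 being called without vehicle rat 3. The filter at the 50th percentile tests fewer genes by construction, and for the other shifts the cause was not tested. Over the 44 mitotic genes taken singly, 5593 alternatives kept the direction and the side of the threshold, 183 lost the call, 40 gained it and 0 reversed. Dim genes limit the comparison, as Ska1 and Kif20b fell below the filter.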
